A study of Mus musculus with 12 samples.

Results

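RXR binding regions of day 8 and day 16 of a neural differentiation of mouse embryonic stem (ES) cells were compared. RXR was mapped by chromatin immunoprecipitation and sequencing (ChIP-seq), and the data are 4 lists of called peaks, 2 replicates for each day, out of 12 lists in the series. A day's set was defined as the regions in which peaks of both replicates overlapped by at least 1 bp, which gave 981 regions at day 8 and 297 at day 16. A day 8 region was called kept if it overlapped a day 16 region and lost if it did not, and a day 16 region with no day 8 region was called gained. There were 233 kept, 748 lost and 54 gained regions. These words describe the peak lists: a lost region was one without a peak in both day 16 lists, which is not a measurement that RXR was absent.

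The cells were wild-type E14 mouse ES cells, a feeder-free line grown with LIF. For differentiation they were aggregated into embryoid bodies without LIF, given all-trans retinoic acid (RA) at 5 µM, and then dissociated and plated on laminin and poly-L-ornithine in N2 medium. The RA at 5 µM is given for all 4 libraries, and the labels separate them by day 8 or day 16 and by replicate number only. Which of the later steps, such as plating, the day 8 cells had passed is not stated here. The labels do not say which cell types were present on either day, whether RA was in the medium at harvest, or whether the replicates came from separate cultures, so the spread between replicates may be technical. The cell line field still reads mouse embryonic stem cells for these libraries, and peak lists hold no expression by which the cells could be checked. The other 8 lists come from undifferentiated ES cells, with RXR and the histone mark H3K27ac each mapped in 1 library of a control and of cells given the LXR agonist GW3965, the RXR agonist LG268 or RA, each at 1 µM for 24 h. They are used here only to describe the day 8 and day 16 regions.

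The retinoid X receptor, RXR, acts on DNA mainly in pairs with other nuclear receptors. Its partners include the retinoic acid receptors (RAR), the liver X receptors (LXR) and the PPARs. Pairs of RXR and RAR bind direct repeats of a short hexamer near genes that RA induces, such as the RAR genes themselves, the RA-degrading Cyp26 genes and the 3′ ends of the Hox clusters. Pairs of RXR and LXR bind near genes of sterol export and fatty acid synthesis.

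Promoter sequences of 3 members are shown to place a kept RAR target, a kept LXR target and a lost Hox promoter side by side. They are RefSeq sequences of build GRCm38.p6, whose coordinates are those of mm10, and each gives the 250 bases before the annotated start, 5′ to 3′ on the strand of the gene. All 3 windows are on the minus strand, at chr14:16575477-16575726 (Rarb), chr11:120824548-120824797 (Fasn) and chr6:52204588-52204837 (Hoxa5), and each lies wholly inside a day 8 region. The search covered the hexamer AGGTCA together with the close variants GGGTCA as well as AGTTCA and also GGTTCA, on both strands. A direct repeat was any 2 of them in 1 orientation with a spacer of 0 to 8 bases. Capitals mark a direct repeat in Rarb and a single hexamer in Fasn, and Hoxa5 holds none. Rarb holds 3 hexamers in all, and what lies outside its direct repeat is in lower case.
Rarb: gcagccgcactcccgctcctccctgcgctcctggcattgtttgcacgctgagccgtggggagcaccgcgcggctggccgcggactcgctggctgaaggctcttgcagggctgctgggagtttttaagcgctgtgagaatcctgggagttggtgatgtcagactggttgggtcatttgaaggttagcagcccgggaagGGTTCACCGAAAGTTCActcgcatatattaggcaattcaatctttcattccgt
Fasn: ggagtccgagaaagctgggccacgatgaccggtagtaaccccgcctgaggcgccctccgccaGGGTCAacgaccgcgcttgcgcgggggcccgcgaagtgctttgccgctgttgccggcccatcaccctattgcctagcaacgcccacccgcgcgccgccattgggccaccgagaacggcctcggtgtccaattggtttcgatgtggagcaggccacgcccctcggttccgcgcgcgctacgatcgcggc
Hoxa5: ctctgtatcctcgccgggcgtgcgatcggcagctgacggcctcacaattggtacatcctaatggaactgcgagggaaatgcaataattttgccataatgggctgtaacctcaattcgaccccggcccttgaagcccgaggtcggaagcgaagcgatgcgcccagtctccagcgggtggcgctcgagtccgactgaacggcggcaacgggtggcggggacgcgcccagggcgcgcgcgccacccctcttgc
The Rarb promoter held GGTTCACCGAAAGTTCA, a direct repeat with a spacer of 5 bases (DR5), from 53 to 37 bases before the start, at chr14:16575513-16575529. The day 16 region at this promoter contained that stretch. A DR5 of these letters was found in 29 of 32817 promoter windows of the genome (0.0884%), and a direct repeat of any spacer from 0 to 8 in 290 (0.884%). At least 1 hexamer on either strand was found in 38.6% of windows. Of the windows touched by a region outside repeats, 1 of 10 under kept regions held a direct repeat (Rarb), as did 2 of 96 under lost regions (Gm52524 and Dedd) and 0 of 5 under gained regions. Sequence outside RefSeq promoter windows was not searched, and a match describes letters and not binding. Some windows lay under regions that are distal by the deposited annotation, such as that of Gm52524, whose region has Mir1951 as nearest gene.

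The lists of day 16 were much shorter than those of day 8, and a larger part of them lay in repeats. Day 8 replicates 1 and 2 held 1154 and 2044 peaks, and day 16 replicates 1 and 2 held 429 and 409. The mean was 1599 ± 629 (SD, n = 2) at day 8 and 419 ± 14.1 (n = 2) at day 16, and the groups did not overlap. By a two-sided exact permutation test over the 4 lists p was 0.333, which is the smallest p that 2 against 2 allows (0.367 after Benjamini-Hochberg adjustment over 11 measures), so no difference between the days can pass a threshold of 0.05. Both day 8 lists had wider peaks, with medians of 182 and 203 bp against 96 and 121 bp at day 16. The read totals behind the lists are unknown, so fewer bound sites and a shallower or less enriched library cannot be told apart at day 16.

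Repeat peaks here means peaks in satellites, simple repeats, rRNA or low-complexity sequence, with those on the mitochondrial genome. Transposon classes (LTR, LINE, SINE) are not counted among them. Outside repeats therefore means outside these classes only. No list of regions to exclude was applied, and other sequence present in many copies was not removed. Their number was alike in all 4 lists, with 190 and 198 at day 8 and 217 and 204 at day 16. Outside repeats the lists held 964 and 1846 peaks at day 8 and 212 and 205 at day 16. The share in repeats was therefore 16.5% and 9.69% at day 8 and 50.6% and 49.9% at day 16. Telomere-type repeats, (TTAGGG)n or (CCCTAA)n, made up 122 and 127 of the day 8 repeat peaks and 143 and 134 of those of day 16. The difference in list length between the days lay among peaks outside repeats.

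**Figure D1:**
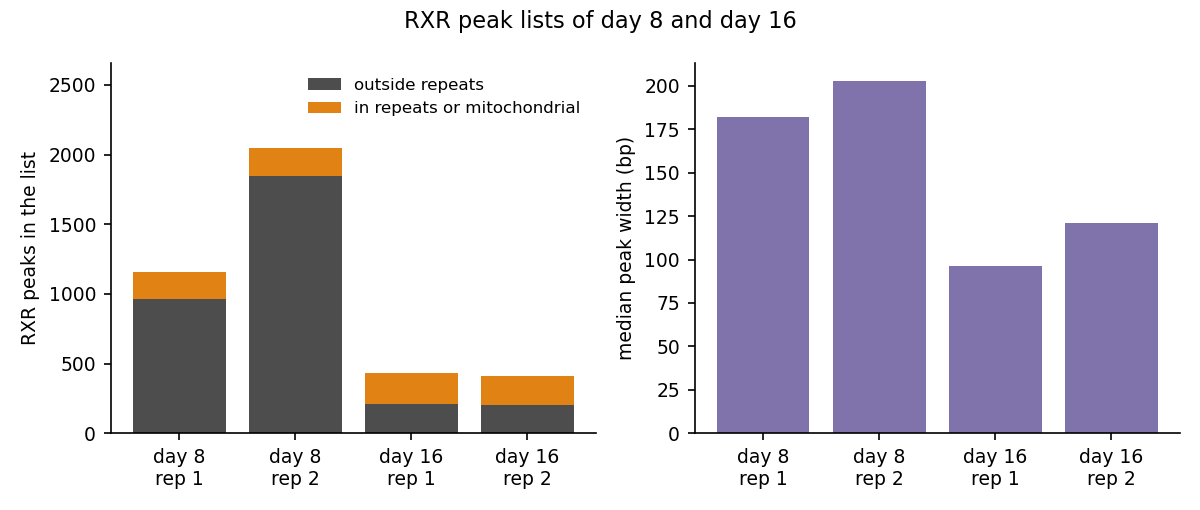
RXR peaks per list, split into peaks outside repeats and peaks in repeats or on the mitochondrial genome (left, bars stacked), and median peak width in bp (right), for the 2 replicates of day 8 and of day 16. The 2 day 16 lists held 429 and 409 peaks against 1154 and 2044 at day 8, while the repeat part was close to 200 in all 4 (190 to 217).

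Repeat regions were mostly kept and other regions were mostly lost. Of the 178 day 8 regions in repeats 160 were kept (89.9%, exact 95% interval 84.5 to 93.9), and of the 803 outside repeats 73 were kept (9.09%, 7.19 to 11.3). Over all regions the kept share was 23.8% (21.1 to 26.5), and repeats made up 68.7% of kept regions. Intervals on shares are Clopper-Pearson intervals and cover counting error only. Among the kept repeat regions 120 of 160 were telomere-type, 10 were the satellite GSAT_MM, 7 were SYNREP_MM and 6 were large-subunit rRNA sequence. None of the 18 lost repeat regions was telomere-type, and 12 of 24 gained ones were. The 3 kept regions of highest day 8 score were all (TTAGGG)n stretches, with Asmt, Cr2 and A630089N07Rik as nearest genes, scored 234 to 242 in day 8 replicate 1 and 139 to 155 in day 16 replicate 1. The score is the authors' own value for each peak, and its scale between lists is not stated, so scores and ranks are read within a list and not as a change between days.

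Seen from day 16, most regions were already present at day 8. Of 297 day 16 regions 243 overlapped a day 8 region (81.8%, 77.0 to 86.0), and outside repeats 78 of 108 did (72.2%, 62.8 to 80.4). The overlap between replicates of 1 day is set beside these shares. Outside repeats, 84.3% of day 8 replicate 1 peaks were found in replicate 2, the longer list, and 43.5% of replicate 2 peaks in replicate 1. At day 16 the same shares were 51.9% and 52.7%. Peaks of day 16 replicate 1 were found in the day 8 lists at 54.7% and 65.1%, and those of day 16 replicate 2 at 53.7% and 58.5%. A day 16 peak outside repeats was thus in a given day 8 list at least as often as in the other day 16 list. The day 8 lists are longer, and their peaks outside repeats are wider (medians of 177 and 196 bp against 95 and 114 bp). Length and width raise such overlaps by themselves, so these shares do not set days against replicates on equal terms. In the other direction, 11.4% and 11% of day 8 replicate 1 peaks and 6.88% and 6.01% of day 8 replicate 2 peaks were found in the day 16 lists. The day 16 lists hold 212 and 205 peaks outside repeats, and their length by itself holds these shares below those between the day 8 replicates. In repeats every pair of lists shared 81.6% to 91.7%, within or between days.

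The kept share depended on how many peaks a list was allowed. With each list cut to its 409 highest peaks, 51.6% of day 8 regions were kept and 148 were lost, and outside repeats the share was 22.1% (33 kept, 116 lost). Without day 8 replicate 1 the lost count was 1800 and the kept share 11.9%, and without day 16 replicate 1 or 2 the gained count was 135 or 136. Of the 730 lost regions outside repeats, 679 had no peak in either day 16 list and 51 (6.99%) had a peak in 1 of them. Among those 51 were the Hoxc4, Foxp1, Hoxa2 and Scd1 regions described below.

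Kept regions stood higher in the day 8 lists than lost ones. The rank of a region is the mean over both day 8 lists of its place by score, as a percentage of the list. Outside repeats the median rank was 19.0% (quartiles 7.68 to 29.5) for kept and 45.0% (27.7 to 62.5) for lost regions. The median scores of kept regions were 23.0 and 33.4 in day 8 replicates 1 and 2, and those of lost regions were 9.32 and 16.2. By quintile of day 8 rank, 37 of 161 regions were kept in the highest (23.0%), 21 of 161 in the next (13.0%), then 5 of 160 (3.12%), 4 of 161 (2.48%) and 6 of 160 in the lowest (3.75%). With repeats in, the shares were 55.8%, 37.8%, 15.8%, 5.61% and 3.57%, and 83 of the 197 regions of the highest quintile were repeats. The fall with rank is also present between replicates of 1 day: of day 8 replicate 1 peaks outside repeats, 99.5% of the highest and 67.2% of the lowest quintile were found in replicate 2. In the highest quintile 124 of the 161 regions were lost. Within the 73 kept regions, day 8 and day 16 ranks had a Spearman rho of 0.374, against 0.876 between the day 8 lists and 0.820 between the day 16 lists; these describe regions that share their libraries and are not replicates.

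**Figure D2:**
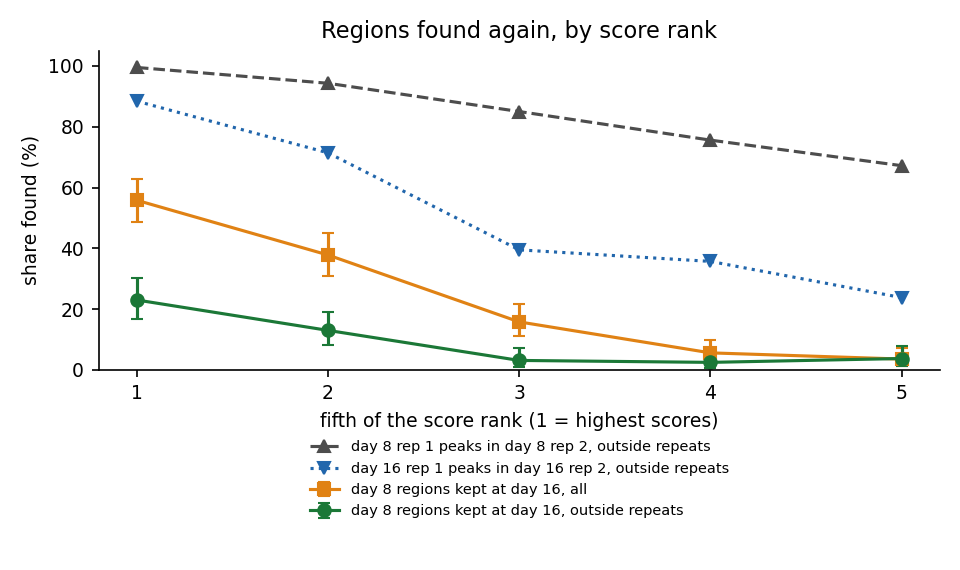
Share of regions or peaks found again (%, y axis) by quintile of score rank within their own list or set (x axis, 1 is the highest), with exact 95% intervals on the kept shares. The kept share outside repeats fell from 23.0% to 3.75%; the curves for peaks of replicate 1 found in replicate 2 fell from 99.5% to 67.2% at day 8 and from 88.4% to 23.8% at day 16, and the heights of the curves cannot be compared, since the lists searched differ in length.

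Among the 10 gene lists, the RAR targets had the most genes with a region at day 8 and none at day 16. Of the 23 listed RAR targets that are nearest gene of a peak anywhere in the series, 13 (56.5%) had a day 8 region within 100 kb of the start, against 4.18% of all 14490 such genes. At day 16 1 had a region (Rarb, 4.35%), against 1.09% of all genes. A region at day 8 only was found for 12, against 3.29% of all genes, among them Cyp26a1, Cyp26b1, Dhrs3, Hoxb1, Meis2, Rara, Rarg, Stra6 and Tshz1. All of these regions lay outside repeats. A region at both days was found for 0.890% of all genes, and one at day 16 only for 0.200%. Counted outside repeats, the shares of all genes were 3.60% at day 8, 0.511% at day 16, 0.359% at both days, 3.24% at day 8 only and 0.152% at day 16 only. Of the 522 genes with a day 8 region outside repeats, 470 had none at day 16. The 12 of 13 RAR targets are close to that part. They stood apart from all genes in having a day 8 region, and not in losing it.

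Rarb, the RA-induced receptor RAR beta, was the highest kept region outside repeats. Its promoter region at chr14:16575380-16575731 lay 345 bp before the start of the deposited annotation. The RefSeq start used for the sequence above is a different one and lies inside this region. The region scored 109 and 137 in the day 8 lists and 15.2 and 15.5 in the day 16 lists. It was peak 16 of 1154 and 16 of 2044 at day 8, and peak 218 of 429 and 198 of 409 at day 16. The promoters of the other RAR genes were lost. The Rara region, 410 bp before the start, scored 39.8 and 60.3 at day 8, and the Rarg region, 768 bp before the start, scored 13.2 and 46.0. Neither had a peak in a day 16 list, and both were called in control and RA-treated ES cells.

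Dhrs3, Cyp26b1, Cyp26a1 and Stra6, members of the RAR target list that act on retinoids, had 1 to 6 day 8 regions each. Dhrs3, which reduces retinaldehyde to retinol, had 5 regions outside repeats, 4 lost and 1 kept. The lost one at chr4:145034463-145035137, 141652 bp after the annotated start, was the highest of all 803 day 8 regions outside repeats, with scores of 132 and 156 and no day 16 peak. The kept one, 106996 bp after the start, scored 65.0 and 77.8 at day 8 and 4.47 and 2.90 at day 16, which put it at place 106 of 108 among day 16 regions outside repeats. Both exceed 100 kb and did not enter the count above, which rests on 2 lower regions at 48243 and 56582 bp. Cyp26b1, an RA-degrading cytochrome P450, had 6 regions, all lost, the highest at chr6:84640551-84641104 with scores of 119 and 125. Cyp26a1, the enzyme of the same function with a response element in its promoter, had 5 lost regions, and the one 1899 bp before its start scored 17.0 and 47.2. Stra6, the receptor for retinol uptake, had 1 intronic region of low score (4.11 and 17.1), also lost.

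All 4 Hox clusters held day 8 regions outside repeats, and 1 of these regions was kept. Of 17 listed Hox genes that are nearest gene of any peak, 10 (58.8%) had a day 8 region, against 4.18% of all genes, and 1, Hoxb3 (5.88%), had a day 16 region, against 1.09%. Hox genes order the body axis from head to tail, and those at the 3′ end of each cluster respond earliest to RA. Between the outermost Hox genes of each cluster, as annotated in RefSeq GRCm38.p6, regions outside repeats were counted whatever their nearest gene. The Hoxa cluster held 7 lost regions (nearest genes Hoxa2, Hoxa4, Hoxa5 and 2700086A05Rik), the Hoxb cluster 8 (Hoxb1, Hoxb2, Hoxb3, Hoxb4 and Mir10a), the Hoxc cluster 2 (Hoxc4) and the Hoxd cluster 2 (Mir10b). Of these clusters Hoxb held 1 kept region, and none held a gained one. Hoxc4 was the nearest gene of 6 lost regions in all, those beyond the cluster's end included. The kept Hoxb3 region at chr11:96341077-96341345, in an intron, scored 82.6 and 87.5 at day 8 and 16.5 and 20.0 at day 16. A second Hoxb3 region, 1235 bp after the start, scored 39.2 and 62.0 at day 8 and had no day 16 peak. The Hoxa5 promoter region, at chr6:52204424-52204906, scored 58.6 and 81.6 at day 8 and was absent from both day 16 lists. Of the Hoxc4 regions, the one at chr15:103061486-103061856 scored 67.5 and 96.0 at day 8 and had a peak of 15.2 in day 16 replicate 1 only. For Hoxa2, the region 10701 bp before its start scored 64.1 and 86.3 at day 8 and 3.55 in day 16 replicate 1 only. Both were therefore lost by the rule of 2 replicates with a peak in 1 day 16 list. The Hoxc4 peak was 218 of 429 in that list, the same place as the Rarb peak, and the Hoxa2 peak was 416 of 429.

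Regions with the Hox cofactor gene Meis1 as nearest gene, and regions beside the Hoxb cluster, were lost as well. Skap1, an adaptor protein gene that neighbours the Hoxb cluster, had 7 regions outside repeats and all were lost, the highest with scores of 62.8 and 99.8. They lay 80554 to 156256 bp from its start. Meis1, which encodes a homeodomain partner of Hox proteins, had 5 lost regions, the highest at chr11:18747924-18748427 with scores of 86.2 and 113. That region was 270794 bp from the Meis1 start, and all 5 lay beyond 100 kb, the closest at 129655 bp. The other lost regions among the 10 highest had as nearest genes 4930524C18Rik, Tmem161b, 2810055G20Rik and Foxp1, a forkhead transcription factor. Foxp1 scored 59.8 and 105 at day 8 and 2.68 in day 16 replicate 1.

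Among LXR targets, counted by nearest gene, 3 genes of fatty acid synthesis had regions at both days, while the sterol exporters and 3 further synthesis genes had them at day 8 only. Of 16 LXR targets that are nearest gene of any peak, 8 (50%) had a day 8 region and 3 (18.8%) also had a day 16 region, beside the shares of all genes given above (4.18% and 0.890%). The 3 were Fasn, Scd2 and Srebf1, which make fatty acids or switch on their synthesis. The 5 with day 8 regions only were Abca1 and Abcg1, sterol exporters, and Acaca, Elovl5 and Scd1, enzymes of fatty acid synthesis. Without day 16 replicate 2 the counts were 5 at both days and 3 at day 8 only.

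Fasn, fatty acid synthase, had a kept promoter region at chr11:120824539-120824945. It scored 19.9 and 56.8 at day 8 and 13.1 and 14.4 at day 16. Scd2, a stearoyl-CoA desaturase, had a kept region 9355 bp before its start in a CpG island, scored 34.0 and 91.1 at day 8 and 13.3 and 9.20 at day 16. Srebf1, the lipogenic transcription factor, had a kept region in intron 1, also in a CpG island, scored 15.0 and 39.2 at day 8 and 13.8 and 2.90 at day 16. This Srebf1 region also touched a RefSeq promoter window of the gene. All 3 kept regions were called in all 4 ES cell RXR lists, as were the lost regions of Abca1, Abcg1, Elovl5 and Scd1. A kept region at chr4:53218111-53218382 lay 58123 bp from the RefSeq start of Abca1 but has 4930522O17Rik as nearest gene, so it did not count for Abca1. This kept region also touched the RefSeq promoter window of Lexis1. Of the lost ones, the Abca1 promoter region scored 5.57 and 12.8 at day 8 and had a peak of 5.42 in day 16 replicate 2 only. Likewise Scd1 scored 10.5 and 49.5 at day 8 and 10.6 in day 16 replicate 1 only. Elovl5 scored 12.3 and 66.9, Abcg1 7.93 and 22.7, and Acaca 6.08 and 5.65, with no day 16 peak. Day 8 replicate 2 gave the higher score at each of these genes but Acaca. Its median scores over kept and lost regions outside repeats were higher as well (33.4 and 16.2, against 23.0 and 9.32 in replicate 1). The scale between lists is not stated, so this is not read as a trait of these genes.

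The other lists had few members with regions. Of 19 PPAR targets 2 (10.5%) had a region on each day, and of 22 nuclear receptors and coregulators 2 (9.09%) did, against 4.18% of all genes at day 8 and 1.09% at day 16. Among PPAR targets, Cpt1a, which carries fatty acids into mitochondria, was kept (9.61 and 40.4 at day 8, 9.55 and 6.33 at day 16). Klf10, a zinc finger factor, was lost, and Angptl4, an inhibitor of lipoprotein lipase, was gained with scores of 4.47 and 6.33 and had no day 8 peak. Among the receptors and coregulators, Ncoa3, a coactivator of nuclear receptors, was kept in its intron 1 at chr2:166031030-166031464, with scores of 88.5 and 138 at day 8 and 10.6 and 11.2 at day 16. Rorb, an orphan receptor, was lost (3.41 and 4.47 at day 8). Nr1d2, the clock repressor REV-ERB beta, was gained with 15.2 and 8.22. Neither pluripotency genes (0 of 18) nor glial genes (0 of 13) had a region on either day. Of neural progenitor genes 1 of 20 had one at day 8 (Hes1), as did 1 of 17 neuronal genes (Dcx) and 1 of 9 mesoderm and endoderm genes (Sox7), and none of these lists had one at day 16. These 3 regions ranked low at day 8, with scores of 4.47 to 11.9 in replicate 2, and their shares of 5% to 11.1% stand beside 4.18% of all genes.

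**Figure D3:**
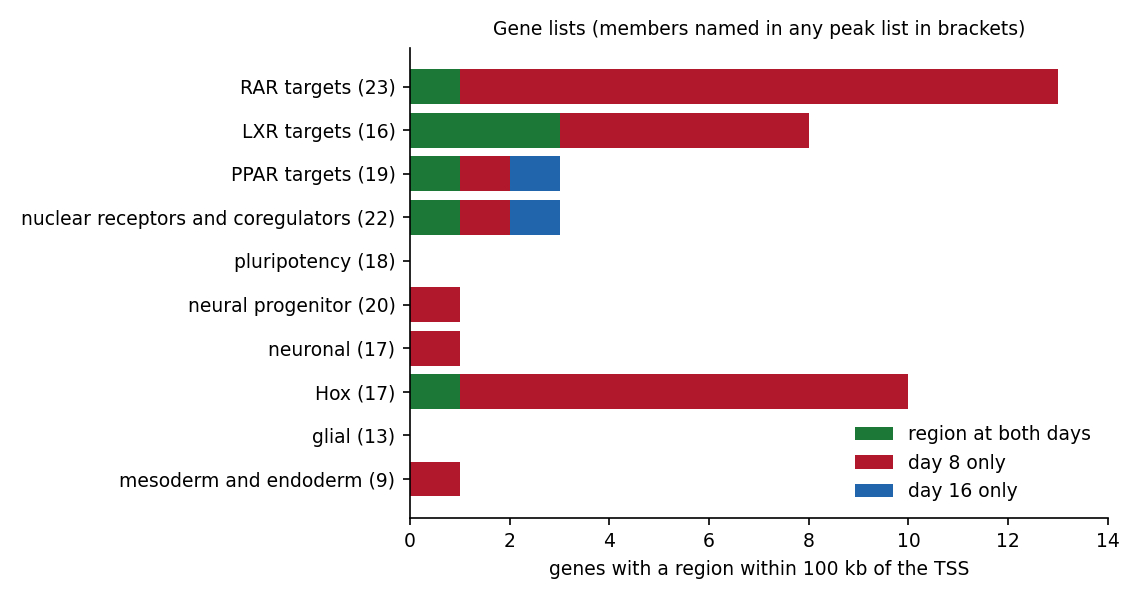
Genes of each list that are nearest gene of a region within 100 kb of the start (x axis, number of genes), split by the days with a region. The number in brackets is the list's members named in any of the 12 peak lists. RAR targets (12 of 13) and Hox genes (9 of 10) had regions mostly at day 8 only, and 3 of 8 LXR targets had them at both days. Of all genes, 522 had a day 8 region outside repeats and 470 of these had it at day 8 only, a part close to that of RAR targets and Hox genes.

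Some kept regions held high places on both days and others, Rarb among them, only at day 8. The 10 highest kept regions outside repeats had as nearest genes Rarb, Aida, Ncoa3, Tbc1d14, D5Ertd579e, Fam171a1, Plekhb1, Dock2, Hoxb3 and Nt5e. Of these, 6 (Aida, Tbc1d14, D5Ertd579e, Fam171a1, Dock2 and Nt5e) were among the 10 highest of the 108 day 16 regions outside repeats, while Rarb was at place 42, Ncoa3 at 70, Plekhb1 at 74 and Hoxb3 at 33. The Aida region, in an LTR of the type RLTR33, scored 100.4 and 133 at day 8 and 75.5 and 81.6 at day 16, where it held the first place. Nt5e, which encodes the ecto-nucleotidase CD73, had a region 231135 bp away with 75.6 and 74.3 at day 8 and 62.0 and 84.5 at day 16. Tbc1d14, a regulator of Rab proteins, had an intronic region with 94.3 and 102 at day 8 and 57.2 and 69.8 at day 16. Plekhb1, in its promoter region 992 bp before the start, scored 81.3 and 102 at day 8 and 12.9 and 6.33 at day 16. Places in sets of 803 and 108 regions are given side by side and show no change by themselves.

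Of the 5 kept promoter regions outside repeats, Rarb, Plekhb1, 1700096K18Rik, Iqck and Fasn were the genes. The kept promoter share was 6.85% (2.26 to 15.3), against 13.3% (10.9 to 16, 97 of 730) of lost and 20% (7.71 to 38.6, 6 of 30) of gained regions, and the intervals of kept and gained overlap that of lost. By the detailed annotation, CpG islands held 7 kept regions (9.59%, 3.94 to 18.8) and 15 lost ones (2.05%, 1.15 to 3.37). That annotation gives each region 1 class, so a promoter region in a CpG island is counted as promoter and not here. Promoter is the deposited class, and the kept Srebf1 region, counted here under CpG island, touched a RefSeq promoter window. The nearest genes of the 7 were Scd2, Scd3, Srebf1, Cpt1a, Erdr1, Guca2b and Kdm6b, and those of the 15 included Elovl5, Klf10 and Cyp26b1. LTR elements held 8 kept (11%, 4.85 to 20.5) and 34 lost regions (4.66%, 3.25 to 6.45) and no gained region. Of the 8, 5 were of the type RLTR44-int (nearest genes Dock2, Fam196b for 2 of them, Cd300c and 4930503E24Rik), a type found in 0 of the 34 lost LTR regions. The most frequent lost types were RLTR17D_Mm and RLTR22_Mus with 7 each; this split by type was made after the values were seen, and copies of 1 element share their sequence. Introns held 30.1% of kept and 35.1% of lost regions and intergenic sequence 56.2% and 47.9%. The median distance to the nearest start was 35942 bp for kept, 28106 bp for lost and 15567 bp for gained regions. With repeats in, the promoter share was 2.15% of kept, 13.0% of lost and 11.1% of gained regions.

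**Figure D4:**
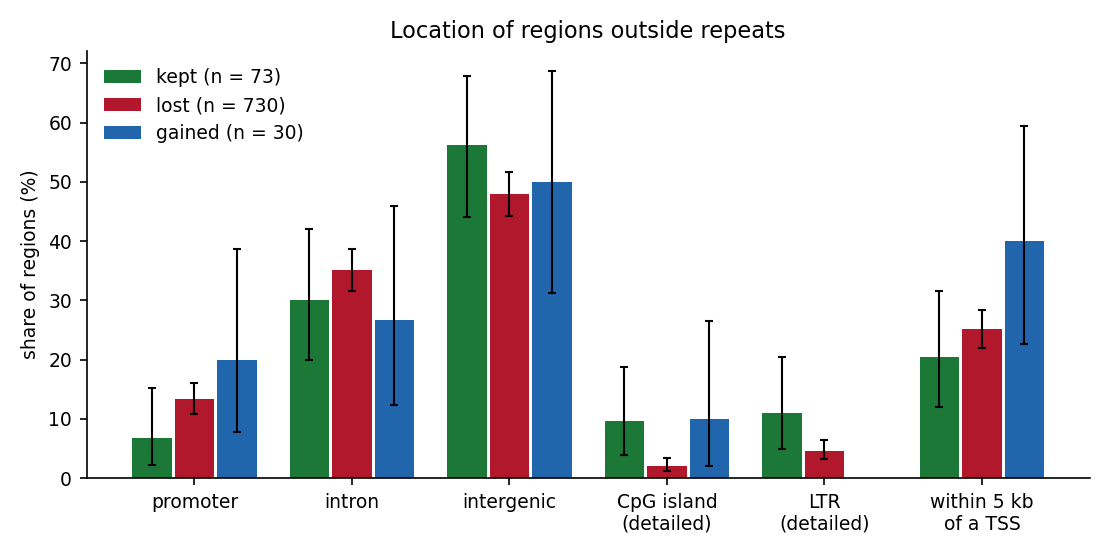
Share of kept, lost and gained regions outside repeats (%, y axis) by annotation class, detailed annotation and distance to the nearest start, with exact 95% intervals that cover counting error only. CpG island shares, which leave out regions classed as promoter, were 9.59% of kept and 2.05% of lost regions, and promoter shares were 6.85% and 13.3%.

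Regions kept to day 16 were more often RXR regions of undifferentiated ES cells than regions lost. Outside repeats, 60.3% of kept regions (48.1 to 71.5) had a peak in the control ES RXR list, against 23.3% of lost regions (20.3 to 26.5). With GW3965 the shares were 37.0% and 6.44%, with LG268 64.4% and 31.4%, and with RA 64.4% and 44.4%. The ES lists differ in length, so the sizes of these gaps are not ranked: with all regions in and the ES RXR lists cut to 940 peaks, the RA list held 77.3% of kept and 29.1% of lost regions. Of the 62 day 8 regions found in all 4 ES RXR lists 26 were kept (41.9%, 29.5 to 55.2), and of the 394 found in none 20 were kept (5.08%, 3.13 to 7.73). Of the 176 found with RA but not in the control 6 were kept (3.41%, 1.26 to 7.27). Each ES condition is 1 library, so these shares describe lists and have no test. With repeats in, the RA list held 84.1% of kept and 43.6% of lost regions.

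The active mark H3K27ac of control ES cells covered 41.1% of kept regions (29.7 to 53.2) and 12.2% of lost regions (9.91 to 14.8) outside repeats. The same shares were 38.4% and 10.7% with GW3965, 31.5% and 9.32% with LG268, and 42.5% and 11.8% with RA. Kept regions also had higher day 8 scores, so the comparison was repeated within the highest quintile of day 8 rank, which was chosen with these values known. There 32 of 37 kept regions (86.5%, 71.2 to 95.5) and 53 of 124 lost regions (42.7%, 33.9 to 51.9) had a control RXR peak, and H3K27ac of the control covered 54.1% (36.9 to 70.5) and 12.9% (7.56 to 20.1). For the RA list the shares were 86.5% (71.2 to 95.5) and 71.8% (63 to 79.5), whose intervals overlap. Median scores in that quintile were 41 and 56.8 for kept and 31.1 and 47.2 for lost regions in the day 8 replicates, so a difference in score was still present there. In repeats, control H3K27ac covered 42.5% of the 160 kept regions (34.7 to 50.6) and 5.56% of the 18 lost ones (0.141 to 27.3). A control RXR peak was present in 85.6% of those kept repeat regions (79.2 to 90.7). The H3K27ac share of kept regions was thus not particular to regions outside repeats.

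**Figure D5:**
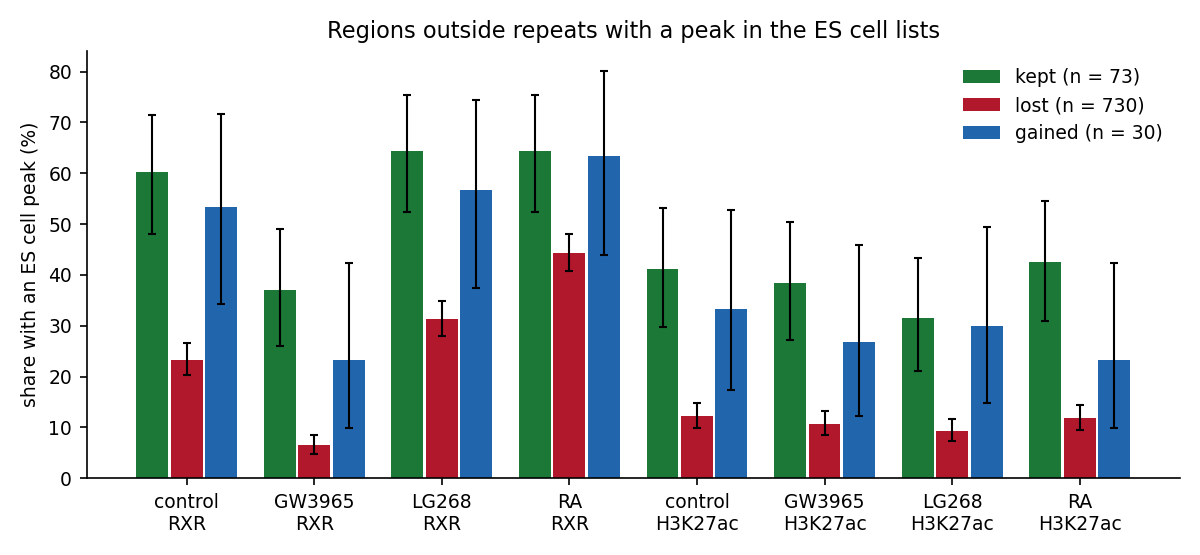
Share of kept, lost and gained regions outside repeats (%, y axis) that overlap a peak of each ES cell list by at least 1 bp (x axis, RXR and H3K27ac in control, GW3965, LG268 and RA cells), with exact 95% intervals. Kept regions had the higher share than lost ones in all 8 lists, from 64.4% against 44.4% in the RA RXR list to 37.0% against 6.44% in the GW3965 RXR list.

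Gained regions were few and stood low in the day 16 lists. Outside repeats there were 30, of which 18 had no peak in either day 8 list and 12 had a peak in 1 day 8 list. The highest was at place 34 of the 108 day 16 regions outside repeats, and the quintiles of day 16 rank from high to low held 0, 3, 8, 8 and 11 of them. The median width was 138 bp, against 176 bp for the day 16 regions that were kept. Of the 10 highest, Ccdc130 was first, a promoter region at chr8:84270615-84270853 with scores of 18.9 and 17.7 at day 16 and no day 8 peak. Dbp, a clock-controlled transcription factor, had an intronic region scored 18.9 and 12.3 at day 16 and 27.7 in day 8 replicate 2 only. Nr1d2, named above, had 22.7 in day 8 replicate 2 only. The remaining genes of the 10 were 4933402J10Rik, Pigk, 4932411N23Rik, Csf2ra, Mllt3, Hnf4g and Fam196a.

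Further gained promoter regions outside repeats were at Chn1, Dot1l (a histone methyltransferase), Acaa1a (a peroxisomal thiolase) and Hirip3. Those in CpG islands were at Nr1d2, Klf9 and Wnt10a. Many gained regions were called in ES cells: 53.3% (34.3 to 71.7) had a control RXR peak and 63.3% (43.9 to 80.1) an RA RXR peak, and 7 of 30 were in all 4 ES RXR lists, among them Dbp, Cldn12, Chn1, Klf9, Wnt10a and Angptl4. With repeats in, 61.1% of gained regions had an RA RXR peak and 27.8% control H3K27ac. Without day 16 replicate 1 these were 31.1% and 12.6%, and without day 16 replicate 2 they were 41.9% and 15.4%. With repeats in, the highest gained regions were (TTAGGG)n at Anxa10, (CCCTAA)n at 1500017E21Rik and the Ccdc130 promoter.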

How the data were processed

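Peak lists of RXR ChIP-seq at day 8 and day 16 (2 replicates each) were used, with the 8 ES cell lists for comparison. Per the submitters' processing notes, the tools were BWA 0.6.0, HOMER 4.2 and MACS2 2.0.10, and the builds mm9 and mm10 are listed without a role. Per the file headers, annotation was against mm10. Peaks were called per library. The deposited peak score is the authors' value, and its scale between lists is not stated. The distance to the nearest start, nearest gene and location class are also deposited values. No list gives read totals, so depth is unknown.

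Peaks of both replicates overlapping by at least 1 bp were merged to a day's regions. Shares have exact Clopper-Pearson 95% intervals. Lists were compared over samples by a two-sided exact permutation test. The gene background was the 14490 nearest genes of any of the 12 lists. No test was made over regions or gene lists. The overlap steps and the kept, lost and gained counts were tested on simulated data, and the rank steps were not.

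The members, gene lists and alternatives were chosen with earlier results of these data known. Named genes were the nearest genes of the 10 highest kept, lost and gained regions outside repeats, the 3 highest of each class with repeats in, and the members of 10 gene lists with a region within 100 kb; other genes were named after their values were seen. Some genes of this rule are not reported here. Promoter sequences are from RefSeq (GRCm38.p6); 26994 genes had a window. Alternatives were shorter lists, other overlaps, repeats left out, peaks in either replicate, other promoter and gene windows, each replicate left out, and replicate blocks; several were added after seeing the data. The labels' replicate numbers pair nothing by name: over 232 regions in all 4 lists the deviations of same-numbered lists had a correlation of -0.102. Scripts ran under Python 3.11.15. They used scipy 1.17.1 for tests and intervals, pandas 2.3.3 and numpy 2.4.6 for tables, and matplotlib 3.10.9 for plots.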

Additional observations from a re-analysis of the deposited data

How the results depend on the processing

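Under the alternatives run, 118 recomputed values stayed within the set limit and 69 moved beyond it. Some orders between values turned. Kept regions outnumbered lost ones at equal list length (158 and 148), LXR targets at both days outnumbered those at day 8 only without day 16 replicate 2 (5 and 3), and the RA RXR list held a smaller share of gained than of lost regions with 50% reciprocal overlap or a peak in either replicate. Leaving out repeats put the promoter share of gained regions (20%) above that of lost ones (13.3%). The main limits are the unknown depth, the replicates of unequal length at day 8, and 2 lists per day. With all regions in, 23.8% of day 8 regions were kept, 233 kept, 748 lost and 54 gained; the cause of each shift below was not tested. With the upper 50% of each list by score they were 32.7%, 352 lost and 4 gained. With 409 peaks in each list they were 51.6%, 148 lost and 129 gained, the rank difference of lost and kept regions was 13.9 percentage points (29.2 otherwise), and 3.88% of gained regions were in promoters. With 50% reciprocal overlap the share was 20.7% with 89 gained, control H3K27ac covered 3.78% of lost and 5.62% of gained regions, and the RA RXR list 19.1% of gained ones. With repeat peaks removed first they were 8.97%, 72 kept and 30 gained, 6.94% of kept regions were in promoters and 63.9% in the RA RXR list. With a peak in either replicate they were 16.4%, 361 kept, 1845 lost and 147 gained, and 5 LXR targets had a region at both days; 5.54% of kept regions were in promoters, the RA RXR list held 69.5% of kept, 32.7% of lost and 22.4% of gained regions, and control H3K27ac 33.0% of kept and 9.52% of gained ones. Without repeats and with either replicate they were 8.61%, 1825 lost and 124 gained; without repeats and at equal length 33 kept and 116 lost; without repeats in the upper 50% 11.4%, 48 kept, 373 lost and 16 gained. Promoters within 5 kb held 10.7% of kept, 24.5% of lost and 24.1% of gained regions. With ES RXR lists of equal length the RA list held 77.3% of kept and 29.1% of lost regions. With a gene window of 10 kb 2 LXR targets were at day 8 only, and without limit 2 RAR targets were at both days.

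Leaving out each replicate in turn, the kept share ran from 11.9% to 26.9%, kept regions from 244 to 264, lost from 717 to 1800, gained from 42 to 136, and the rank difference from 27.3 to 44.2. Promoter shares ran from 1.22% to 4.17% (kept), 11% to 14.7% (lost) and 6.67% to 13.0% (gained). The RA RXR list held 77.4% to 85.2% of kept, 34.4% to 44.4% of lost and 31.1% to 60.9% of gained regions, and control H3K27ac 38.3% to 42.2%, 8.36% to 15.3% and 12.6% to 30.4%. RAR targets at day 8 only numbered 12 to 17 and at both days 1; LXR targets numbered 3 to 7 and 3 to 5. The difference in peak number ran from -1625 to -735.

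With the replicate block, in which same-numbered lists were compared, the kept share was 19.1%, with 1317 lost and 118 gained, and the difference in peak number was -1180 (exact sign permutation p = 0.5, the smallest 2 pairs allow). Under the crossed pairing it was 19.5%, with 1308 lost and 109.5 gained on average. A threshold on scores pooled over the 4 lists was not run, because the lists are not known to share a scale.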

Other observations

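Several genes carried more than 1 day 8 region outside repeats: 28 had 3 or more. Zfp386 had 8 (7 lost, 1 kept), and 2700054A10Rik had 5, of which 4 were kept. In all, 656 genes were nearest to a day 8 region outside repeats and 91 to a day 16 region. Of these, 65 had a kept and 603 a lost region, and 12 had both: 2010315B03Rik, 2700054A10Rik, Dhrs3, Erdr1, Fasn, Hoxb3, Kdm6b, Lhfpl2, Rarb, Sec61g, Srebf1 and Zfp386. Of the 30 genes with a gained region, 5 also had a day 8 region.

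A few further kept regions outside repeats scored high on both days. The region nearest to Ndufb3, a subunit of respiratory complex I, scored 54.6 and 51.7 at day 8 and 68.7 and 69.9 at day 16. One nearest to Slc39a10, a zinc transporter 2028076 bp away, scored 41.0 and 40.4 at day 8 and 58.4 and 78.5 at day 16. An intronic region of Large scored 49.6 and 55.4 at day 8 and 70.6 and 49.2 at day 16. A region near P4ha2, a collagen prolyl hydroxylase, scored 52.0 and 48.6 at day 8 and 52.2 and 66.4 at day 16. These were named after their values were seen, and whether their sequence is present in many copies was not checked.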
